A study of Mus musculus with 12 samples.

Results

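The genes described here are 8 parts of the hypoxia response measured in mouse kidney after long-term cannabidiol (CBD) treatment. They are the 3 alpha subunits of the hypoxia-inducible factor (HIF), namely Hif1a, Epas1 and Hif3a, the oxygen-sensing prolyl hydroxylases Egln1 and Egln3, and the HIF-responsive genes Vegfa, Bnip3 and Ankrd37. They were taken by gene symbol from the 57180 genes of the count files, and all 8 were among the 17163 genes with enough counts to be tested. Hif3a was chosen by its measured difference between the higher dose and the control group in these same libraries, so its levels are a description and no p-value is given for it. That it passed the threshold is how it was chosen and not a result.

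Poly(A) RNA of the kidney was sequenced from 12 young adult male C57BL/6J mice, with 4 mice in each of 3 groups and 1 library per mouse. All mice received a daily intraperitoneal injection of saline with the detergent Tween for 28 days. The injections held no CBD in the group called Control, 10 mg CBD per kg of body weight in the group called 10CBD and 20 mg per kg in the group called 20CBD. CBD is a non-intoxicating cannabinoid of the hemp plant.

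HIF is a pair of proteins, an alpha subunit and the constant partner ARNT, that binds DNA and switches on genes for glycolysis, blood vessel growth and survival at low oxygen. When oxygen is present, prolyl hydroxylases mark the alpha subunit, the VHL ubiquitin ligase recognizes the mark and the protein is destroyed, so HIF activity is set largely by protein stability and not by the amount of alpha subunit mRNA. In the kidney, tubule cells mainly use HIF-1 alpha, whereas endothelial cells and the interstitial cells that make erythropoietin use HIF-2 alpha, the product of Epas1. HIF-3 alpha exists in several forms, some of which lack a transactivation domain and restrain the other subunits.

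The libraries held 15417867 to 23532088 counts on genes. The share of counts on mitochondrial genes ranged from 3.53% to 23.4%, and it was under 10% in 4 libraries, namely Control replicate 2, 10CBD replicates 1 and 3 and 20CBD replicate 3. Markers of kidney cells were abundant in all libraries, with a summed level of 23600 to 31100 CPM (counts scaled to library size) over 6 proximal tubule genes, and markers of adrenal cortex summed to at most 5.74 CPM. Of the 17163 genes tested, 0.0291% passed an adjusted p-value of 0.1 in edgeR for 10CBD against Control, 0.303% for 20CBD against Control and 0 for 20CBD against 10CBD, where 1083 genes reached 0.05 before adjustment. The 4 mice of one group lay wholly above or below the 4 of the other for 3.19%, 5.3% and 3.1% of the genes in these comparisons.

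The window before the start of Hif3a is shown because Hif3a was the member chosen for its difference between groups, beside that of Egln3, a hydroxylase gene known as a HIF target. Both were taken from RefSeq promoters (table build GRCm38.p6) and placed by exact match in GRCm39, the build of the count files. They are written 5′ to 3′ on the minus strand, with the letters ACGTG and GCGTG, the core of the HIF-binding element, and their reverse complements in capitals. The Hif3a window lies at chr7:16796353-16796602 and Egln3 at chr12:54250674-54250910.
Hif3a: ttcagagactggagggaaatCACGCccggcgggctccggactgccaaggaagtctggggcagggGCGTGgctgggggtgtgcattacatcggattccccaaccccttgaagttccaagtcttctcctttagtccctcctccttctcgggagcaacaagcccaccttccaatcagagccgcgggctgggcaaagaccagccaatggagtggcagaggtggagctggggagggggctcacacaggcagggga
Egln3: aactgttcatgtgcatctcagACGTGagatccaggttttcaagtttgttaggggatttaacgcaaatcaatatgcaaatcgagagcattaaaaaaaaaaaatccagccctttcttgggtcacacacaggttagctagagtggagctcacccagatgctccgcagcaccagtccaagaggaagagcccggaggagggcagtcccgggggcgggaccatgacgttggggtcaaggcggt

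The Hif3a window held GCGTG 2 times, once on each strand, and no ACGTG, whereas the Egln3 window held ACGTG 1 time and no GCGTG. Windows were found for 7 of the 8 members, and in all 7 members at least 1 window of 250 bases held either word. This count is by member, whereas the shares that follow are by window. For Vegfa, the window at the annotated start, chr17:46343304-46343553, held neither word. The Vegfa window that did, chr17:46336090-46336339, lies within the gene, with 218 of its 250 bases in annotated exons. All 250 bases of the Egln1 window lie in annotated exons. Such short words are common, since 38.6% of 32851 promoter windows of the same length held at least 1 of them, 16.6% ACGTG and 28.2% GCGTG. The E-box CACGTG, which contains ACGTG, was counted apart and was present in 6.02% of all windows and in those of Hif1a and Bnip3, but in neither of the windows shown. A word match describes the letters and does not mark a bound site.

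Hif3a, which encodes HIF-3 alpha, lies on the minus strand at chr7:16764918-16796352 (ENSMUSG00000004328) and has 7 annotated transcripts with 6 different starts, which the gene counts do not separate. Its normalized level was 0.714, 0.668, 2.01 and 1.25 CPM in the 4 Control mice. It was 1.10, 1.91, 1.81 and 1.82 CPM in the 4 mice of 10CBD. It was 2.64, 4.49, 3.84 and 5.25 CPM in the 4 mice of 20CBD. Every 20CBD mouse therefore lay above every mouse of the other groups, while Control and 10CBD overlapped. In 10CBD, replicate 1 stood apart below the other 3 mice.

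The mean level of Hif3a was 1.16 ± 0.627 CPM in Control, 1.66 ± 0.374 CPM in 10CBD and 4.05 ± 1.11 CPM in 20CBD (SD, n = 4). The fitted log2 fold change against Control was 1.81 (SE 0.34) in 20CBD, which is a 3.51-fold higher level. In 10CBD it was 0.52 (SE 0.35). The difference between the doses was 1.29 (SE 0.33) on the log2 scale. These values rest on few reads, with 14 to 40 counts per library in Control, 25 to 40 in 10CBD and 45 to 93 in 20CBD. The intronic antisense transcript annotated within Hif3a shares no exon bases with it.

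Hif3a was the 1 member of 8 past the threshold in 20CBD against Control, beside 0.303% of all genes, and nothing is read from this count, since Hif3a was selected on that contrast. No member passed in 10CBD against Control or in 20CBD against 10CBD, beside 0.0291% and 0 of all genes. Hif3a was also the 1 member whose groups did not overlap, in 20CBD against Control and in 20CBD against 10CBD, beside 5.3% and 3.1% of all genes, and no member was without overlap in 10CBD against Control. Since 20CBD and Control did not overlap, leaving out 1 library could not reverse the direction of the Hif3a change. Hif3a no longer passed the threshold when Control replicate 1, 2 or 4 or 20CBD replicate 2 or 4 was left out, with log2 fold changes of 1.63, 1.62, 1.85, 1.76 and 1.66. Without the 4 libraries of low mitochondrial share it was 1.65, with 0.714 to 2.01 CPM in 3 Control mice, 1.82 to 1.91 CPM in 2 mice of 10CBD and 2.64 to 5.25 CPM in 3 mice of 20CBD. Adipocytes also express Hif3a. The summed level of 9 adipocyte markers was 125 to 353 CPM in Control, 85.0 to 182 CPM in 10CBD and 81.2 to 131 CPM in 20CBD, and all 8 that could be tested had a negative log2 fold change in 20CBD, of which only Car3 passed (edgeR adjusted p = 0.0516). The part of adipocytes in the level of Hif3a was not tested.

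**Figure D1:**
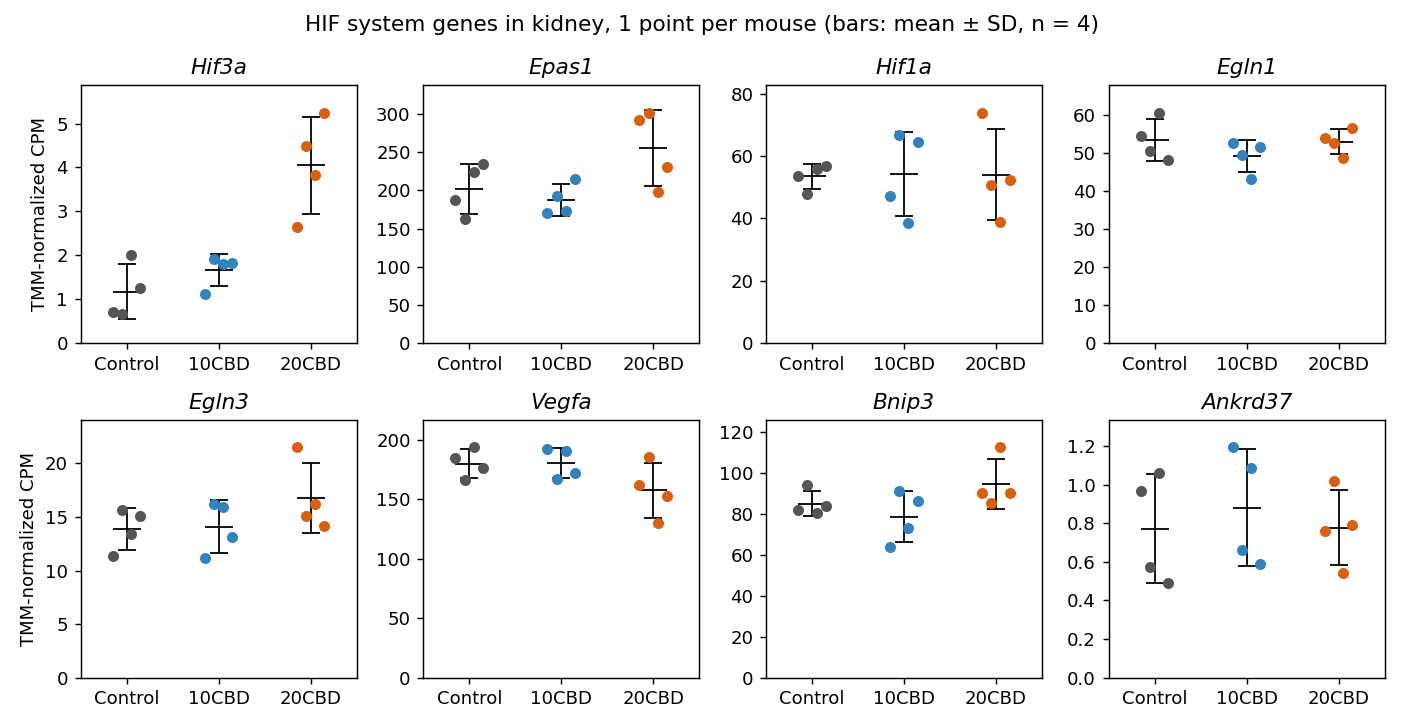
Normalized level (CPM, linear axes from 0) of the 8 genes in each mouse, with 1 point per mouse and bars for the mean ± SD of the 4 mice in Control, 10CBD and 20CBD. For Hif3a the 20CBD mice lie from 2.64 to 5.25 CPM, above all others, and the groups overlap in the other 7 panels.

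Epas1, on the plus strand of chromosome 17 at 87061087 to 87140838 (ENSMUSG00000024140), encodes HIF-2 alpha. Its level was 187, 162, 224 and 234 CPM in Control and 170, 193, 173 and 214 CPM in 10CBD. In 20CBD it was 292, 302, 197 and 230 CPM. The first pair of 20CBD mice stood above all other mice, and the other pair lay within the Control range. The log2 fold change was 0.34 (SE 0.16) for 20CBD against Control (edgeR adjusted p = 0.592) and -0.11 (SE 0.16) for 10CBD against Control (edgeR adjusted p = 0.945). Between the doses it was 0.45 (SE 0.16), with an adjusted p of 0.758 in edgeR and a two-sided exact permutation p of 0.0571, so no difference of Epas1 passed.

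The highest Epas1 values came from 20CBD replicates 1 and 2, which had the highest mitochondrial shares, 20.6% and 23.4%. With this share as a covariate, the log2 fold change of Epas1 in 20CBD was 0.21 (edgeR adjusted p = 0.222). Without the 4 libraries of low mitochondrial share it was 0.35 (edgeR adjusted p = 0.384), with mean levels of 215 CPM in 3 Control mice and 275 CPM in 3 mice of 20CBD. The summed level of 5 endothelial markers was 343 to 371 CPM in Control, 325 to 432 CPM in 10CBD and 394 to 489 CPM in 20CBD, and none of the 5 passed the threshold singly in 20CBD, with adjusted p-values from 0.632 to 0.980 in edgeR. The marker Plvap had a mean of 188 CPM over the libraries and so made up much of this sum. For Flt1, Kdr and Tek, which encode receptors of endothelial cells, the log2 fold changes in 20CBD were 0.24, -0.33 and -0.19, and none passed (edgeR adjusted p = 0.722, 0.419 and 0.722). The part of endothelial cells in the level of Epas1 was not tested, and in RNA of whole tissue more cells of a type and more RNA per cell cannot be told apart.

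Hif1a, on the plus strand of chromosome 12 at 73948149 to 73996321 (ENSMUSG00000021109), encodes HIF-1 alpha. Its level was 53.6, 47.8, 55.8 and 56.7 CPM in Control. It was 47.3, 66.8, 38.7 and 64.5 CPM in 10CBD and 74.0, 50.6, 38.9 and 52.3 CPM in 20CBD. The group means were nearly equal, at 53.5 ± 3.99, 54.3 ± 13.6 and 53.9 ± 14.6 CPM, but the treated mice were more widely spread than the Control mice. The log2 fold changes were 0.02 (SE 0.19) in 10CBD and 0.01 (SE 0.19) in 20CBD, with adjusted p-values of 0.992 and 0.996 in edgeR. The 95% interval in 20CBD, from -0.40 to 0.42, leaves room for a change of moderate size in either direction.

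The lowest Hif1a levels came from libraries of low mitochondrial share. The 4 libraries with a share under 10% had the 4 lowest Hif1a levels, 38.7 to 47.8 CPM, against 50.6 to 74.0 CPM in the other 8. Among those 8 the lowest level, 50.6 CPM, came from 20CBD replicate 2, the library of the highest share, 23.4%. The same 4 libraries held ranks 1, 2, 3 and 6 from the lowest for Epas1, but ranks 1, 3, 5 and 10 for Hif3a. Without them Hif1a was 55.4 ± 1.61 CPM in 3 Control mice, 65.6 ± 1.60 CPM in 2 mice of 10CBD and 59.0 ± 13.0 CPM in 3 mice of 20CBD (SD). Both mice of 10CBD then lay above the 3 Control mice, with a log2 fold change of 0.24 that did not pass (edgeR adjusted p = 0.945). The part of the mitochondrial share in these levels was not tested.

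**Figure D2:**
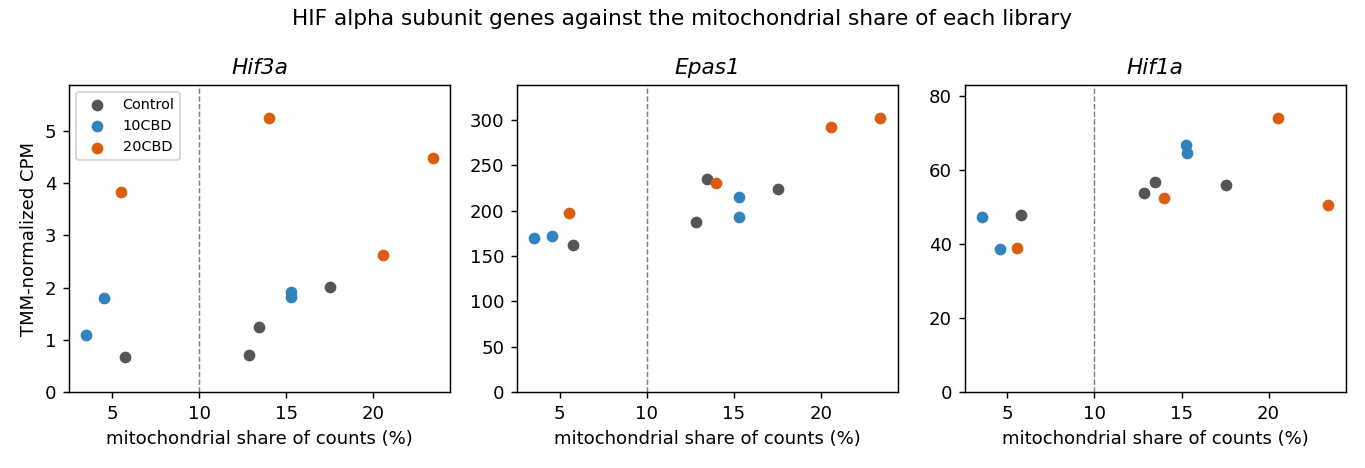
Level of the 3 alpha subunit genes (CPM, linear axes from 0) against the mitochondrial share of counts in each library, coloured by group, with a dashed line at 10%. The 4 libraries to the left of the line hold the lowest Hif1a levels, 38.7 to 47.8 CPM. In these libraries Hif3a is at 0.668 CPM in Control, 1.10 and 1.81 CPM in 10CBD and 3.84 CPM in 20CBD. Nothing is read from this order, since Hif3a was chosen by its difference between groups.

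Levels of different genes were compared per kilobase of annotated exon. In Control kidneys the order was Vegfa at 41.9 ± 2.75, Epas1 at 35.7 ± 5.90, Bnip3 at 19.6 ± 1.41, Hif1a at 6.41 ± 0.478, Egln1 at 5.97 ± 0.610, Egln3 at 5.16 ± 0.716, Ankrd37 at 0.412 ± 0.151 and Hif3a at 0.152 ± 0.082 CPM per kb (SD, n = 4). Vegfa and Epas1 overlapped between mice, as did Hif1a, Egln1 and Egln3, and the lowest Ankrd37 value lay just under the highest Hif3a value. Epas1 made up 83.2% to 85.6% of the summed alpha subunit level per kb in Control, 80.5% to 86.2% in 10CBD and 84.9% to 88.9% in 20CBD. The share of Hif3a in this sum was 0.348% ± 0.152 in Control, 0.544% ± 0.113 in 10CBD and 1.06% ± 0.38 in 20CBD (SD, n = 4), so Hif3a remained a minor part of the alpha subunit mRNA at its highest. The ratio of Epas1 to Hif1a per kb was 5.55 ± 0.545, 5.27 ± 0.979 and 7.16 ± 1.30 in the same order (SD, n = 4), and the groups overlapped.

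Egln1 and Egln3 encode PHD2, the main oxygen sensor of the HIF system, and PHD3, which HIF itself induces. Egln1, on the minus strand of chromosome 8 at 125635308 to 125676865 (ENSMUSG00000031987), was at 54.6, 50.6, 60.6 and 48.1 CPM in Control. It was at 52.8, 49.5, 43.1 and 51.6 CPM in 10CBD and at 53.9, 52.7, 48.6 and 56.5 CPM in 20CBD. It varied least of the 8 genes over the 12 libraries relative to its mean. Its log2 fold changes against Control were -0.12 in 10CBD and -0.01 in 20CBD (SE 0.11 in both), with adjusted p-values of 0.922 and 0.990 in edgeR. The 95% interval of the 20CBD change ran from -0.25 to 0.22.

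Egln3, on the minus strand of chromosome 12 at 54225767 to 54250673 (ENSMUSG00000035105), was at 11.4, 15.6, 13.4 and 15.1 CPM in Control. It was at 11.1, 16.2, 15.9 and 13.1 CPM in 10CBD and at 21.5, 15.1, 16.2 and 14.2 CPM in 20CBD. The first 20CBD mouse had the highest level of the 12, and the other 3, at 14.2 to 16.2 CPM, overlapped the Control mice. The log2 fold change was 0.27 (SE 0.17) in 20CBD (edgeR adjusted p = 0.730) and 0.02 (SE 0.17) in 10CBD (edgeR adjusted p = 0.992).

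Vegfa encodes the endothelial growth factor by which HIF draws in vessels, and it is also made constantly by podocytes and tubule cells. It lies on the minus strand of chromosome 17 at 46327919 to 46343309 (ENSMUSG00000023951). Its level was 185, 166, 194 and 176 CPM in Control and 193, 167, 190 and 172 CPM in 10CBD. In 20CBD it was 162, 185, 130 and 153 CPM, so that 3 of the 4 mice lay below all Control mice. The log2 fold change in 20CBD was -0.19 (SE 0.12), with an adjusted p of 0.734 in edgeR and a two-sided exact permutation p of 0.143. In 10CBD it was close to 0, with a 95% interval from -0.26 to 0.27.

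Bnip3 encodes a mitochondrial outer membrane protein that directs mitochondria to autophagy, and Ankrd37 encodes an ankyrin-repeat protein that is a known target of HIF-1. Bnip3, on the minus strand of chromosome 7 at 138490690 to 138511253 (ENSMUSG00000078566), was at 81.8, 93.8, 80.4 and 83.5 CPM in Control. It was at 63.6, 91.0, 73.1 and 86.2 CPM in 10CBD and at 90.0, 85.2, 112 and 90.0 CPM in 20CBD. The highest and the lowest levels of the 12 came from libraries of low mitochondrial share, 20CBD replicate 3 and 10CBD replicate 1. The log2 fold change in 20CBD was 0.15 (SE 0.13), with an adjusted p of 0.821 in edgeR, and in 10CBD it was -0.11 (SE 0.13), with an adjusted p of 0.936.

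Ankrd37, on the minus strand of chromosome 8 at 46449939 to 46458744 (ENSMUSG00000050914), was close to the limit of detection, with 9 to 27 counts per library. Its level was 0.97, 0.57, 1.06 and 0.49 CPM in Control. It was 1.19, 0.66, 1.08 and 0.59 CPM in 10CBD and 0.76, 1.02, 0.54 and 0.79 CPM in 20CBD. The 3 groups covered the same range. The 95% interval of the log2 fold change in 20CBD ran from -0.78 to 0.79 (edgeR adjusted p = 0.998), so a change of moderate size was not detectable at this depth. Exons of Ankrd37 overlap those of Ufsp2 and Lrp2bp on the other strand, and exons of Hif1a, Egln1, Vegfa and Bnip3 overlap antisense noncoding RNAs. Since the strand setting of the counting is not given in the sources used here, reads from both strands may be counted together or set aside as ambiguous.

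**Figure D3:**
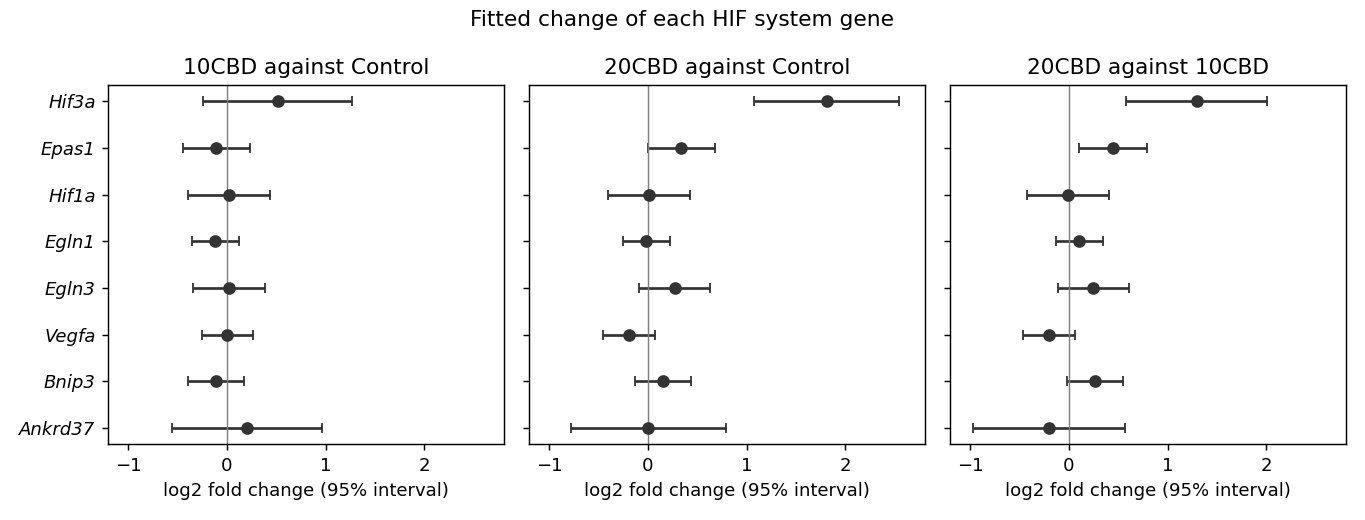
Fitted log2 fold change of the 8 genes with its 95% interval, from the edgeR fit of all 12 libraries, for each dose against Control and for the higher against the lower dose. Hif3a stands at 1.81 in 20CBD against Control, and the other 7 genes lie between -0.19 and 0.34 there.

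The rest of the pathway was read from 6 lists of 81 other genes, of which 79 could be tested. The untested genes, Npas1 and Epo, had at most 9 and 6 counts in any library, so nothing can be said here of erythropoietin, the best known HIF-2 product of the kidney. No list gene passed the threshold in 10CBD against Control or in 20CBD against 10CBD, beside 0.0291% and 0 of all genes. In 20CBD against Control 1 of 79 passed, beside 0.303% of all genes. This gene, Ddit4, was known to respond in these data when the list was drawn up, so nothing is read from the count. At an unadjusted p-value under 0.05 there were 1 higher and 2 lower list genes in 10CBD, and 7 higher and 8 lower in 20CBD, beside 5.67% and 8.45% of all genes. The median log2 fold change over the 79 genes was 0.03 in 10CBD and -0.06 in 20CBD, beside 0.01 in both over all genes tested. The 20CBD mice lay wholly above the Control mice for 9 of the 79 genes and wholly below for 5, beside 5.3% of all genes in either direction. In 10CBD these counts were 2 and 3, beside 3.19% of all genes.

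Among the partners and coactivators of the alpha subunits, 0 of 5 genes tested passed in any comparison. Crebbp, a histone acetyltransferase that HIF recruits, had the highest mean CPM, with a log2 fold change of -0.11 (SE 0.19) in 10CBD and -0.07 (SE 0.19) in 20CBD. Cited2, which competes with HIF for this coactivator, had -0.16 (SE 0.17) and -0.21 (SE 0.17). The list of oxygen sensing and HIF turnover held 10 genes, and none of them passed. Hif1an, whose product hydroxylates the transactivation domain of the alpha subunit, was at 43.6 ± 5.82 CPM in Control, 47.9 ± 6.16 CPM in 10CBD and 40.3 ± 3.87 CPM in 20CBD (SD, n = 4). Elob, a subunit of the VHL ligase, was at 102 ± 2.82 CPM in Control, 87.0 ± 7.14 CPM in 10CBD and 109 ± 17.7 CPM in 20CBD, with an edgeR adjusted p of 0.872 in 10CBD. All 4 mice of 10CBD lay below all Control mice for Elob, beside 3.19% of all genes without overlap. Elob was named for the smallest unadjusted p of its list in 10CBD, so nothing is read from this.

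None of the 20 genes of glucose uptake and glycolysis passed. In 20CBD 14 of them had a negative and 6 a positive log2 fold change, with a median of -0.17, whereas in 10CBD 8 were negative and 12 positive with a median of 0.05. Aldoa, the aldolase of the glycolytic pathway and the one with the highest mean CPM, had a log2 fold change of -0.18 (SE 0.13) in 20CBD. The enolase gene Eno1 was at 503, 431, 380 and 460 CPM in Control and at 356, 321, 355 and 376 CPM in 20CBD. All 20CBD mice lay below all Control mice for Eno1, by a log2 fold change of -0.33 (SE 0.12), which did not pass (edgeR adjusted p = 0.475). Eno1 was named for the smallest unadjusted p of its list, and 5.3% of all genes were without overlap. Nothing is therefore read from this separation.

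Among the 12 mitochondrial and stress targets, Ddit4 was the gene that passed. Its response in these data was known when the list was drawn up, so nothing is read from its passing. Ddit4 encodes REDD1, an inhibitor of mTORC1 that hypoxia and also glucocorticoids induce. Its level was 16.1, 11.0, 13.5 and 8.16 CPM in Control and 11.0, 12.4, 14.0 and 23.0 CPM in 10CBD. In 20CBD it was 24.7, 27.4, 27.3 and 25.1 CPM, above all mice of both other groups and within a narrow range. Of all genes, 5.3% were without overlap between 20CBD and Control and 3.1% between the doses. The log2 fold change of Ddit4 in 20CBD was 1.09 (SE 0.23), given as a description without a p-value. In 10CBD the change was 0.30 (SE 0.23) and did not pass (edgeR adjusted p = 0.902). The call was lost when Control replicate 1, 2, 3 or 4, 10CBD replicate 3 or any of the 4 libraries of 20CBD was left out, with log2 fold changes from 0.94 to 1.26 over all 12 such fits.

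Ndrg1 and Hmox1 of the same list had lower levels in 10CBD than in Control without passing the threshold. Ndrg1, a stress-responsive gene that HIF induces, had the highest mean CPM of the list, at 3230 ± 136 CPM in Control, 2600 ± 177 CPM in 10CBD and 2550 ± 149 CPM in 20CBD (SD, n = 4). Its groups did not overlap with Control at either dose, beside 3.19% of all genes in 10CBD and 5.3% in 20CBD. The log2 fold changes of Ndrg1 were -0.31 and -0.34 (SE 0.13 in both), with adjusted p-values of 0.812 and 0.475 in edgeR. Hmox1, the heme-degrading enzyme, was at 73.9, 45.5, 62.0 and 50.7 CPM in Control and at 26.4, 33.3, 37.2 and 28.9 CPM in 10CBD. In 20CBD it was at 37.9, 59.7, 39.6 and 40.7 CPM, with replicate 2 apart from the others. The log2 fold change was -0.88 (SE 0.18) in 10CBD (edgeR adjusted p = 0.305) and -0.38 (SE 0.18) in 20CBD (edgeR adjusted p = 0.590).

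Of the 13 vascular and secreted targets tested, none passed. Igfbp3, which encodes a binding protein of insulin-like growth factors, was at 289, 180, 255 and 214 CPM in Control. It was at 314, 296, 285 and 261 CPM in 10CBD and at 398, 396, 358 and 322 CPM in 20CBD. Every 20CBD mouse lay above every mouse of both other groups, and the log2 fold change against Control of 0.65 (SE 0.15) fell short of the threshold (edgeR adjusted p = 0.127). Of all genes, 5.3% were without overlap between 20CBD and Control and 3.1% between the doses. Igfbp3 was named for the smallest unadjusted p of its list, so nothing is read from its separation.

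None of the 19 matrix, pH and chromatin targets passed. Lox, which encodes the collagen-crosslinking lysyl oxidase, was at 4.12, 2.86, 2.82 and 2.12 CPM in Control and at 10.6, 11.5, 5.94 and 4.57 CPM in 20CBD. The 20CBD mice lay above all Control mice, with a log2 fold change of 1.44 (SE 0.35) that did not pass (edgeR adjusted p = 0.187). The level of 10CBD was in between and overlapped both, at 4.62 ± 2.08 CPM (SD, n = 4). Lox was named for the smallest unadjusted p of its list in 20CBD, and 5.3% of all genes were without overlap there. Nothing is therefore read from the separation of 20CBD and Control. Summed fibroblast and pericyte markers were 171 to 196 CPM in Control and 194 to 249 CPM in 20CBD, and their part in the Lox level was not tested. Bhlhe40, a transcriptional repressor of the clock that is also a HIF target, was at 48.4 ± 5.15 CPM in Control, 62.7 ± 4.49 CPM in 10CBD and 49.5 ± 4.28 CPM in 20CBD (SD, n = 4). All 10CBD mice lay above all mice of both other groups, by 0.37 (SE 0.11) on the log2 scale against Control (edgeR adjusted p = 0.796). Of all genes, 3.19% were without overlap between 10CBD and Control and 3.1% between the doses. Bhlhe40 was named for the smallest unadjusted p of its list in 10CBD, so nothing is read from its separation. Car12, a carbonic anhydrase of the cell surface and the one with the highest mean CPM, had log2 fold changes of -0.20 and -0.21 (SE 0.15 in both).

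**Figure D4:**
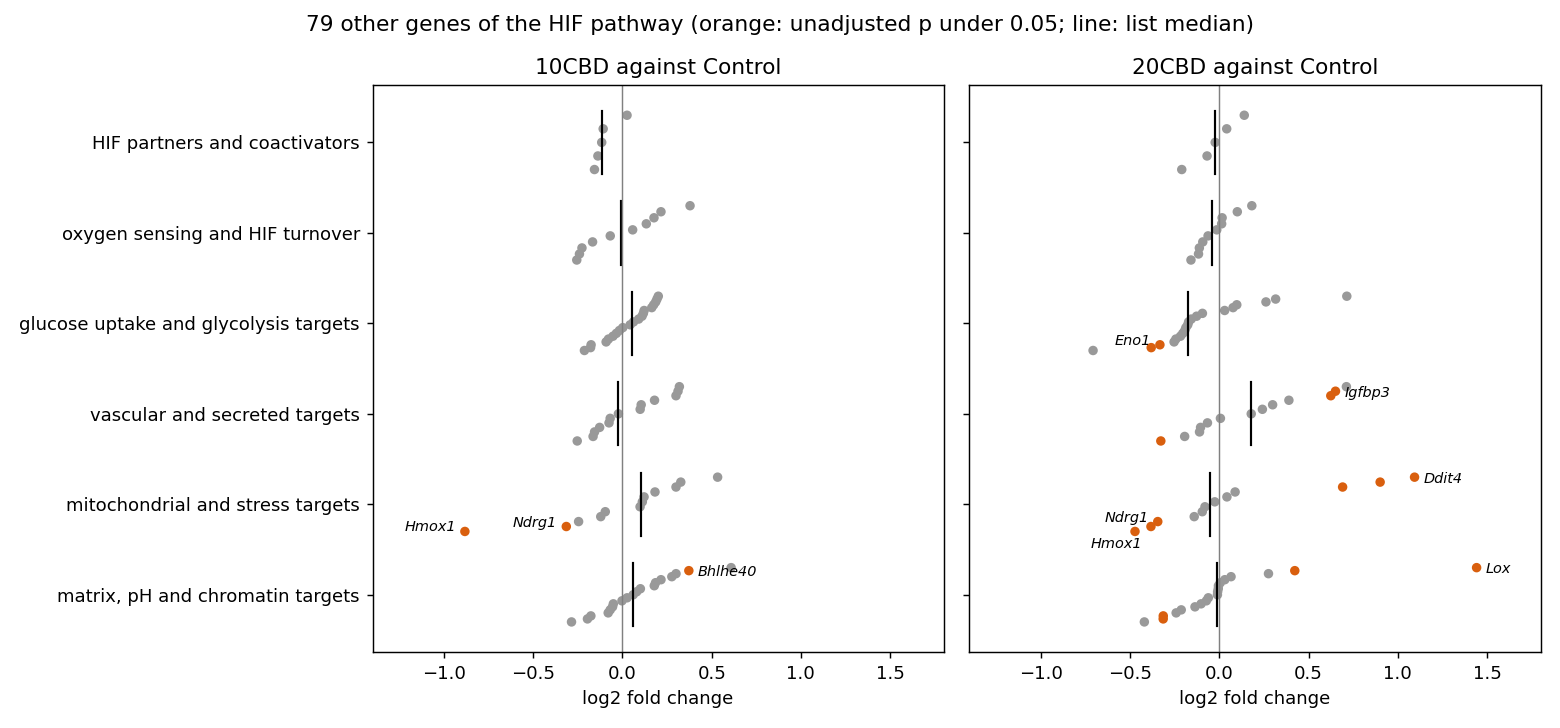
Log2 fold change of the 79 other genes of the HIF pathway that could be tested, 1 point per gene in 6 lists, for 10CBD and 20CBD against Control, with orange points for an unadjusted p under 0.05 and a black line at the median of each list. List medians in 20CBD run from -0.17 for glucose uptake and glycolysis to 0.18 for vascular and secreted targets. In 10CBD they run from -0.12 for partners and coactivators to 0.11 for mitochondrial and stress targets. The single gene past the adjusted threshold, Ddit4, known to respond when its list was drawn up, stands at 1.09 in 20CBD.

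Some calls depended on how the mitochondrial share was treated. With this share as a covariate in edgeR, 8.08% of all genes passed in 20CBD against Control, and 10 of the 79 list genes did (12.7%). Of these, 7 were higher, namely Car9, Cox4i2, Cxcl12, Ddit4, Gys1, Igfbp3 and Lox, and 3 were lower, namely Cited2, Kdr and Ndrg1. Without the 4 libraries of low share, 0.611% of all genes and 3 list genes, Cxcl12, Ddit4 and Lox, passed in 20CBD, all of them higher. In 10CBD Hmox1 was the 1 list gene called in either of these fits, beside 0.0874% of all genes with the covariate and 0.148% without the 4 libraries. The authors had named Hmox1 among the altered genes of these data, and the lists were chosen with earlier results known. Nothing is therefore read from the calls of Hmox1. Genes in this paragraph beyond those named before were chosen after their values were seen.

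The level of Hif3a was followed over the 12 libraries most closely by Per1, a light- and glucocorticoid-responsive repressor of the circadian clock, with a Pearson correlation of log2 CPM of 0.92. Next came Lyrm1, Itprip, Rcsd1 and Mcm10, with correlations between 0.91 and 0.92. All 12 points share the group difference by which Hif3a was chosen, and no p-value is given. Per1 was at 48.7, 46.0, 66.2 and 56.9 CPM in Control, at 42.8, 67.7, 54.5 and 63.5 CPM in 10CBD and at 69.5, 90.8, 72.0 and 83.8 CPM in 20CBD. All 20CBD mice lay above the other 8, but Per1 was picked by its likeness to Hif3a, so nothing is read from this. Over all genes, 5.3% were without overlap between 20CBD and Control. The log2 fold change of Per1 in 20CBD was 0.54, which did not pass the threshold.

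After the group means were removed, the 5 genes most like Hif3a were Gm45309, 6530402F18Rik, 4930442L01Rik, Cyp4a12a and Per1, with correlations from 0.90 to 0.86. Per1 was thus in both sets of 5, at rank 1 of all genes over the 12 libraries and rank 5 within groups. Cyp4a12a, a male-specific arachidonic acid hydroxylase of the proximal tubule, was at 32.9, 57.1, 131 and 71.7 CPM in Control, and the same Control replicate 3 had the highest Hif3a level of its group. Cyp4a12a was picked by its likeness to Hif3a within groups, so nothing is read from this shared mouse. Among the members, Epas1 had the highest correlation with Hif3a over 12 libraries, 0.64, and that of Hif1a was -0.02. Epas1 was only at rank 445 of all genes, and after the group means were removed its correlation was 0.37, at rank 2443. With 14 to 93 counts of Hif3a per library, counting error limits these values.

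**Figure D5:**
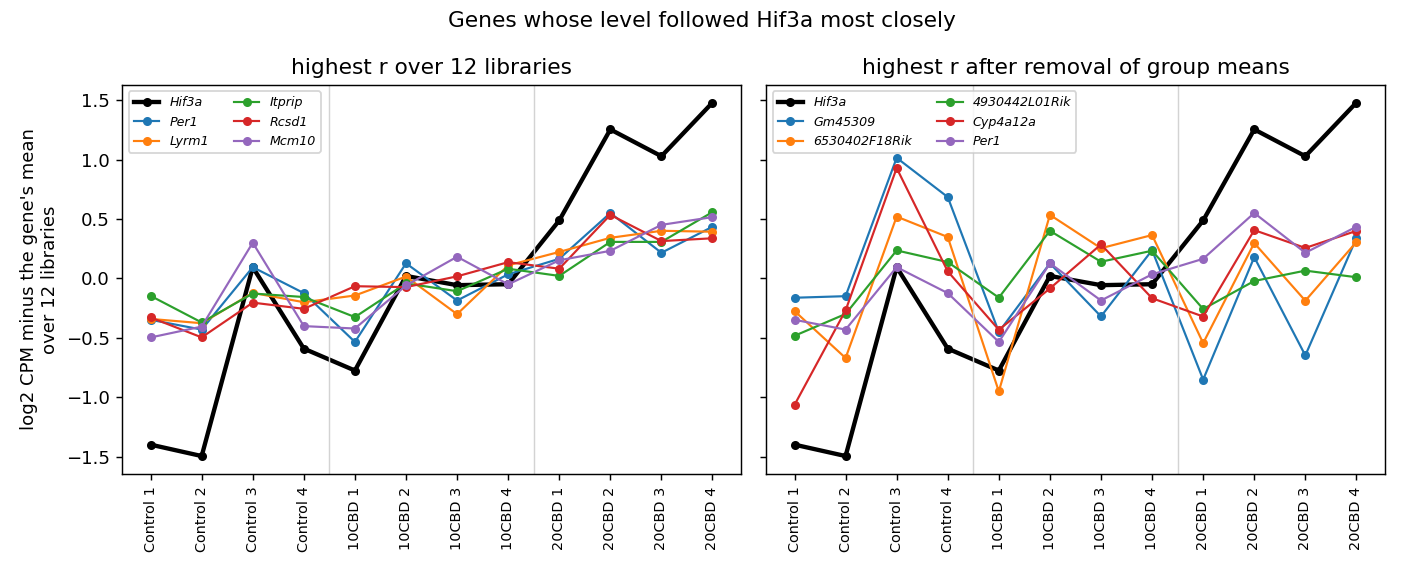
Log2 CPM of Hif3a (black) and of the genes most like it in each of the 12 libraries, as the difference from the mean of each gene, with the 5 genes of highest correlation over all libraries on the left and after removal of group means on the right. Hif3a and Per1 share their low point in 10CBD at replicate 1 and are highest in 20CBD.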

How the data were processed

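Kidney poly(A) RNA of 12 mice was sequenced as paired reads, 1 library per mouse and 4 per group. The authors used Flexbar for trimming, STAR 2.7.5c for mapping to GRCm39 and HTSeq 1.99.2 for counting per Ensembl gene, and they deposited the raw counts without normalization. The 5 summary lines of each file were left out. The annotation release, the strand setting and the use of molecular identifiers are not given in the sources used here, so copies of a molecule may count more than once and intervals from counting error alone would be too narrow. Genes were named from GENCODE vM39, which holds 99.0% of the identifiers.

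Genes were kept by filterByExpr, normalized by TMM and compared by the quasi-likelihood test of edgeR 4.0.16 in R 4.3.3 on all 12 libraries, with a mean per group. The Benjamini-Hochberg adjustment covered all 17163 genes, and genes under 0.1 were called. CPM are TMM-normalized, log2 CPM had a prior count of 2, and levels per kilobase used the union of annotated exons. Exact permutation tests were two-sided, with 70 arrangements and a smallest p of 0.0286. The edgeR script was tested on simulated data. The alternatives were other scalings and filters, DESeq2 1.42.0, limma-voom 3.58.1, fits of only the groups compared, a replicate block, the mitochondrial share as a covariate or a limit, and leaving out each library.

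The 8 members and the gene lists were chosen with earlier results of these data known. Of the lists, the text names genes past the threshold, the gene of highest mean CPM in each list and the gene of smallest unadjusted p per list and dose, and beside them the 5 genes most correlated with Hif3a with and without group means.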

Additional observations from a re-analysis of the deposited data

Results flagged for a closer look

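In 90 groups of 4 mice of the genes named here, 4 had 1 mouse that stood apart from the other 3 by Dixon's criterion, which by chance marks about 1 group in 20. For Hif3a in 10CBD, replicate 1 was at 1.105 CPM and the other 3 mice at 1.807 to 1.913 CPM. That mouse also had the lowest mitochondrial share of the 12 libraries, 3.53%. Hmox1 in 20CBD was at 59.75 CPM in replicate 2 and at 37.89 to 40.71 CPM in the others. Itprip in Control was at 12.5 CPM in replicate 2 and at 14.52 to 14.81 CPM in the others. Mcm10 in Control was at 5.843 CPM in replicate 3 and at 3.36 to 3.589 CPM in the others, and Control replicate 3 was the Control mouse with the highest Hif3a level, 2.01 CPM. Mcm10 was picked by its likeness to Hif3a, so nothing is read from this shared mouse.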

How the results depend on the processing

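The log2 fold change of Hif3a in 20CBD was 1.65 to 1.91 over the 11 other settings. It was 1.62 to 2.21 over the 12 fits without 1 library. Nothing is read from the direction, since Hif3a was chosen on this contrast and the 2 groups did not overlap. The number of members called in 20CBD fell from 1 to 0 at an adjusted p under 0.05 and was 0 to 1 without 1 library. In 20CBD against 10CBD it was 1 without a filter on low counts, where 0.64% of all genes were called. The number of list genes called in 20CBD, 1 in the report, was 4 with DESeq2, 4 without the filter and 10 with the mitochondrial share as a covariate. It was 3 in libraries with a share of at least 10%, 0 at an adjusted p under 0.05 and 0 to 1 without 1 library. Calls over all genes also rose, from 0.303% in the report to 1.01% with DESeq2, 1.04% without the filter and 8.08% with the covariate. They were 0.611% in the libraries of higher share and 0.134% at an adjusted p under 0.05. In 10CBD the number of list genes called was 1 instead of 0, each time Hmox1, with DESeq2, without the filter, with the covariate and in the libraries of higher share. Over all genes the shares were 0.189%, 0.827%, 0.0874% and 0.148% in the same order, beside 0.0291% in the report. Nothing is read from the calls of Hmox1, which the authors had already named among the altered genes of these data. In 20CBD against 10CBD 2 list genes were called without the filter, beside 0.64% of all genes. No pairing by replicate number was detected, since 4 of 12 pairs of same-numbered libraries had a correlation over 0.1 and 3 of 12 libraries correlated best with their own number. These correlations cannot show whether mice of the same number were handled together. With the replicate number as a block 0 list genes and 27 of all genes were called in 20CBD. Of the 5 genes most like Hif3a, 2 stayed with Spearman's rank correlation, 1 after removal of group means and 1 to 5 without 1 library. Counts of groups without overlap, for which RLE and upper-quartile scaling were added after seeing the data, stayed within 1.5 times. No scaling moved the median of all genes by over 0.1. Log2 fold changes of genes that were not called changed sign in 49 of the repeated values, none of them past the threshold. For Hif1a this was so in 10CBD with limma-voom (-0.0143), no filter (-0.0044) and the block (-0.0055), in 20CBD with limma-voom (-0.0223), the block (-0.0193) and the covariate (-0.1401), and between doses with no filter (0.0049). For Ankrd37 it was so in 20CBD with RLE (-0.0012), DESeq2 (-0.0059), no filter (-0.0103) and the covariate (-0.0206). With no filter, Egln3 (-0.0043) and Vegfa (-0.0218) changed sign in 10CBD. In the libraries of higher mitochondrial share, values changed sign in 10CBD for Vegfa (-0.1248), Bnip3 (0.1097), Ankrd37 (-0.4404) and Crebbp (0.0898), in 20CBD for Egln1 (2e-04) and between doses for Ankrd37 (0.4603). Without 1 library, values in 10CBD ranged from -0.0966 to 0.1522 for Hif1a, -0.0612 to 0.1191 for Egln3, -0.0341 to 0.0389 for Vegfa and -0.2275 to 0.0218 for Crebbp. In 20CBD they ranged from -0.1803 to 0.1392 for Hif1a, -0.063 to 0.05 for Egln1, -0.1553 to 0.1831 for Ankrd37, -0.0305 to 0.0889 for Bhlhe40, -0.1939 to 0.0424 for Crebbp and -0.0016 to 0.1861 for Elob, and between doses from -0.1984 to 0.1206 for Hif1a. The cause of these shifts was not tested. With 9 to 27 counts of Ankrd37 and 14 to 93 of Hif3a per library, depth limits both genes.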
